A study of Mus musculus with 2 samples.

Results

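Neutrophils of orthotopic KPC pancreatic tumors were examined in 2 single-cell RNA-seq libraries, 1 from a control tumor sample and 1 from residual tumor after insufficient irreversible electroporation (iIRE). KPC is a mouse pancreatic cancer line derived from tumors driven through Pdx1-Cre, with mutant Trp53 R172H among its alleles, and the cells had been injected into the pancreatic tail of C57BL/6 mice. In iIRE, needles were placed in the tumor and electric pulses ablated only part of it, and the residual tumor was taken 3 days later. The controls were described as untreated in one place and as sham-operated, with the needle inserted and no pulses, in another, and the number of mice behind each library was not given. The study obtained male mice at 5 to 7 weeks of age. Neutrophils were chosen by their measured UMI counts. A cell counted as one when it had at least 1000 UMIs (unique molecular identifiers, each standing for 1 captured RNA molecule), at least 200 genes and at most 5% mitochondrial UMIs, when S100a8, S100a9, Il1r2 and Csf3r together made up at least 0.5% of its UMIs and at least 5 UMIs, and when it held under 0.1% C1qa, C1qb and C1qc, at most 1 Ly6c2 UMI and at most 2 UMIs of Krt8, Krt18 and Cdkn2a. This gave 276 of 36642 cells, 144 of 17814 in the control and 132 of 18828 in the iIRE library.

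Neutrophils are short-lived granulocytes that are made in the bone marrow and follow CXCR2 ligands into inflamed tissue. They carry ready-made granules of proteases and antimicrobial proteins, produce reactive oxygen through the NADPH oxidase, and secrete cytokines such as IL-1β and TNF. In tumors, part of them takes on a state marked by hypoxia and glycolysis genes, while cells that have newly come from the blood keep granule transcripts and interferon-stimulated genes.

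With 1 library per group, the treatment cannot be told apart from the mice, the dissociation and the library. All ratios are therefore given without a test. Each 95% interval covers counting error only, with UMIs taken as independent, and says nothing of the spread between mice or cells. The summed members held 231066 UMIs in the control and 189657 in the iIRE library, and 3 UMIs, the floor for a gene that was not seen, stood for 12.98 and 15.8 CPM (UMIs scaled to a sum of 1000000). The median member had 1328 UMIs and 601.5 genes in the control library and 1299.5 UMIs and 629.5 genes in the iIRE library. These were small cells beside C1q macrophages, with medians of 6912.5 and 5758 UMIs, Ly6c2 monocytes, with 4906 and 5147.5, and tumor cells, with 13037.5 and 9650. Of 458 barcodes found in both libraries, none was a member in both.

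The genes of the rule chose the cells and are given as a description. Their sum reached a median of 7.03% of a member's UMIs in the control library, from 0.515% to 23.2%, and 6.16% in the iIRE library, from 0.606% to 23.1%. S100a9, a calcium-binding alarmin abundant in neutrophil cytosol, was detected in 97.2% of control and 99.2% of iIRE members, and its partner S100a8 in 95.1% and 96.2%. S100a9 was found in 13.7% and 10.5% of the far deeper tumor cells, and after thinning each cell to 1000 UMIs in 3.17% and 2.29%. The decoy receptor gene Il1r2 was seen in 88.9% and 95.5% of members, and the G-CSF receptor gene Csf3r in 81.9% and 81.1%. The members nearest the limit had sums of 0.515%, 0.528% and 0.596%, and the nearest cells outside had 0.488%, 0.468% and 0.453%. Another 49 cells, 18 control and 31 iIRE, failed only by the keratin term, 14 only by Ly6c2 and 11 only by the C1q genes.

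Genes outside the rule also marked neutrophils. Cxcr2, the receptor for neutrophil-attracting chemokines, was found in 44.4% of control and 49.2% of iIRE members and in none of the 46 and 80 Ly6c2 monocytes. G0s2, an inhibitor of fat breakdown, stood at 5773 CPM in control and 5484 CPM in iIRE members, against 0.364 and 2.63 CPM in C1q macrophages. Retnlg, a resistin-like secreted protein of neutrophils, stood at 1688 and 1940 CPM, against 0 and 0.439 CPM in the macrophages. Hdc, the enzyme that makes histamine, stood at 1805 and 1967 CPM, against 1.27 and 2.85 CPM. Trem1, an activating receptor, had 1229 and 1350 CPM, and the lectin receptor gene Clec4d 701 and 717 CPM. The surface marker gene Ly6g was nearly absent, with 15 control and 5 iIRE UMIs over all members. Cd177 had 15 and 17 UMIs and Mmp8 7 and 17 UMIs. Thinned alike, Cd177 was found in 6.28% and 8.71% of members, against 5.63% and 1.26% of Ly6c2 monocytes. Mmp8 was found in 2.98% and 5.72%, against 2.22% and 3.24%. Y-linked genes summed to 190 and 216 CPM in members, against 1.88 and 2.30 CPM in tumor cells.

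**Figure D1:**
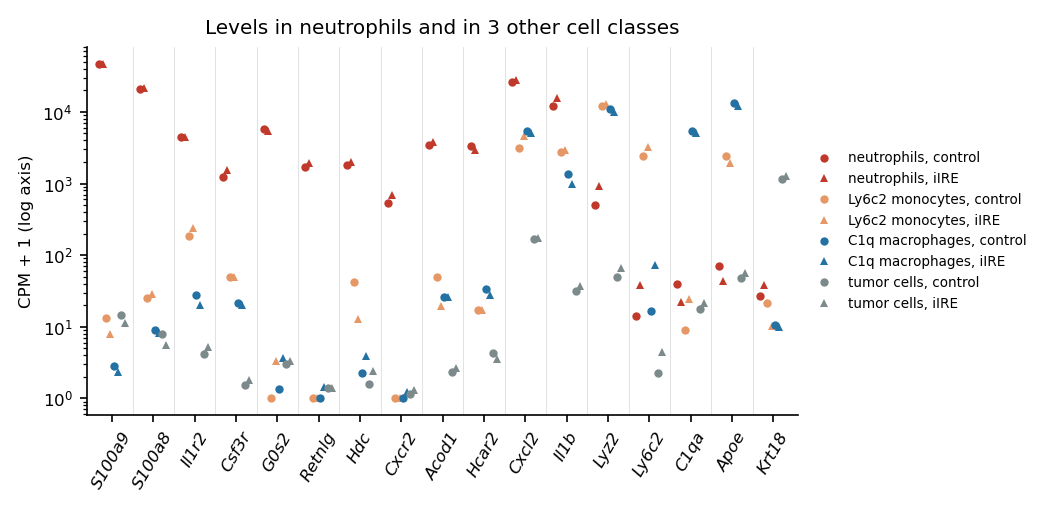
Summed level of 17 genes (CPM + 1, log axis) in neutrophils, Ly6c2 monocytes, C1q macrophages and tumor cells, with a circle for the control and a triangle for the iIRE library, 1 value per library and no error bar. The 4 rule genes and G0s2, Retnlg, Hdc and Cxcr2 lay highest in neutrophils of both libraries, while Lyz2, C1qa and Apoe lay highest in the monocytes or macrophages and Krt18 in the tumor cells.

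Genes of early granule formation were nearly silent. Of 6 primary granule genes, which include Mpo and Elane, 4 had no UMI, and the list summed to 0 control and 3 iIRE UMIs. Among secondary granule genes, Camp had 0 UMIs in both libraries, Ngp 0 and 2, the lactoferrin gene Ltf 30 and 11, and the siderophore-binding lipocalin gene Lcn2 63 and 68. Markers of eosinophils were at 0 for 9 of 10 genes, of mast cells and basophils for 8 of 9, and of platelets and erythroid cells for 9 of 9.

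Before the comparison, 5 members stood apart by their UMI number. Of these, 4 control members had 4188 to 9852 UMIs and 1 iIRE member had 9201, while the remaining members reached at most 3046 and 3436. The control cell with 8242 UMIs held 23 Ccr7 and 24 Fscn1 UMIs, genes of migrating dendritic cells, beside 23 S100a8 and 38 S100a9 UMIs. The other 3 had no S100a8 or S100a9, qualified through 29 to 52 Il1r2 UMIs, and carried 254 to 967 UMIs of Cd74, H2-Aa, H2-Ab1 and H2-Eb1, the genes of MHC class II antigen presentation. The iIRE cell held 90 S100a9 UMIs together with 51 Postn UMIs and all 81 Rgs5 UMIs of the members, genes of fibroblasts and pericytes. The 5 cells made up 13.7% of the control and 4.85% of the iIRE member UMIs. The calls over all members were therefore repeated without them, and the resulting values are given wherever such a call changes. The dendritic cell list summed to 658 and 15.8 CPM with them and to 10.0 and 16.6 CPM without them.

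**Figure D2:**
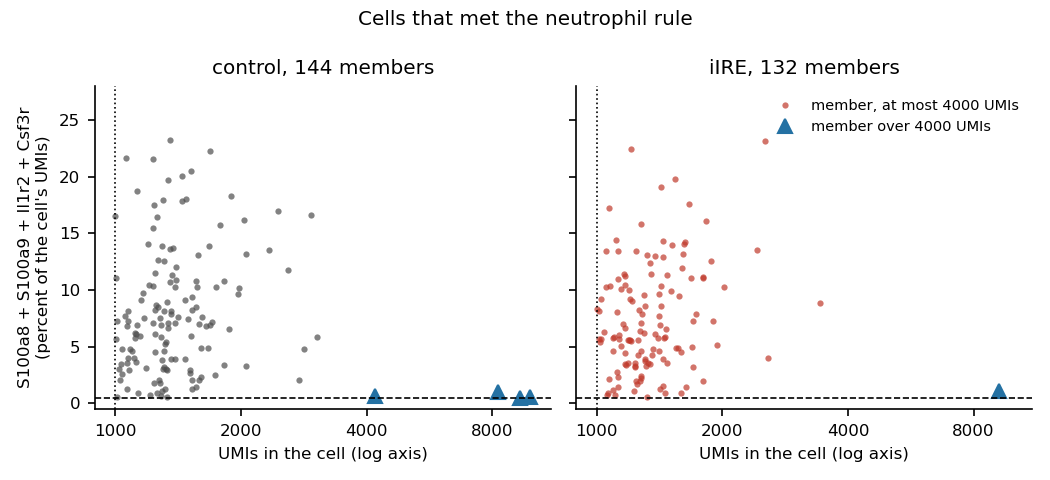
UMIs per cell (log axis) against the percent of its UMIs from S100a8, S100a9, Il1r2 and Csf3r, for 144 control and 132 iIRE members, 1 point per cell, with dashed and dotted lines at the 0.5% and 1000 UMI limits. The 5 members over 4000 UMIs, drawn as triangles, lay near the lower limit of 0.5%, while the remaining cells spread up to 23.2%.

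Neutrophils were a small fraction of both libraries. They made up 0.808% of control cells (exact Clopper-Pearson 95% interval 0.682 to 0.951) and 0.701% of iIRE cells (0.587 to 0.831), with a log2 ratio of -0.21 (-0.56 to 0.15). For every 100 C1q macrophages there were 19.05 and 18.2 neutrophils. With the minimum lowered to 500 UMIs, 197 control and 214 iIRE cells met the rule and the log2 ratio turned to 0.04, since 53 control and 82 iIRE cells lay under 1000 UMIs. The number of neutrophils in the tissue and the number captured by the assay cannot be told apart.

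Gene levels were compared as UMIs summed over the members, scaled to CPM, with 10 CPM added before the log2 ratio of iIRE over control, which understates the ratio of low genes. Of 1149 genes with at least 50 UMIs over both libraries, 98 were higher in iIRE members by over 1.5-fold (8.53%) and 108 lower (9.4%). Without the 5 members of many UMIs, 99 of 1043 genes were higher (9.49%) and 76 lower (7.29%), of which 73 and 48 had the same call before. By the same limits, 6.13% and 4.57% of 2056 genes were higher and lower in Ly6c2 monocytes, 0.515% and 0.494% of 9319 in C1q macrophages, and 0.0501% and 0.025% of 15969 in tumor cells. These cells had more UMIs, and the smaller sums of the neutrophils give wider counting error. Of the calls in all members, 77 higher and 91 lower genes had an interval clear of 0. The median over all compared genes was -0.02, and 0.02 without the 5 cells.

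The genes with the largest differences included several that the 5 cells set alone. Cd74, the invariant chain of MHC class II, had 1085 control and 23 iIRE UMIs and a log2 ratio of -5.16, and without the 5 cells 20 and 22 UMIs and 0.26. Cst3, a cathepsin inhibitor, went from -0.75 to 0.53, and Mt1, a metal-binding metallothionein, from 0.06 to 1.64. Postn had 0 control and 52 iIRE UMIs, of which 1 remained. Tmsb10, an actin-binding peptide gene, stayed lower, at -1.68 with and -0.74 without them.

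**Figure D3:**
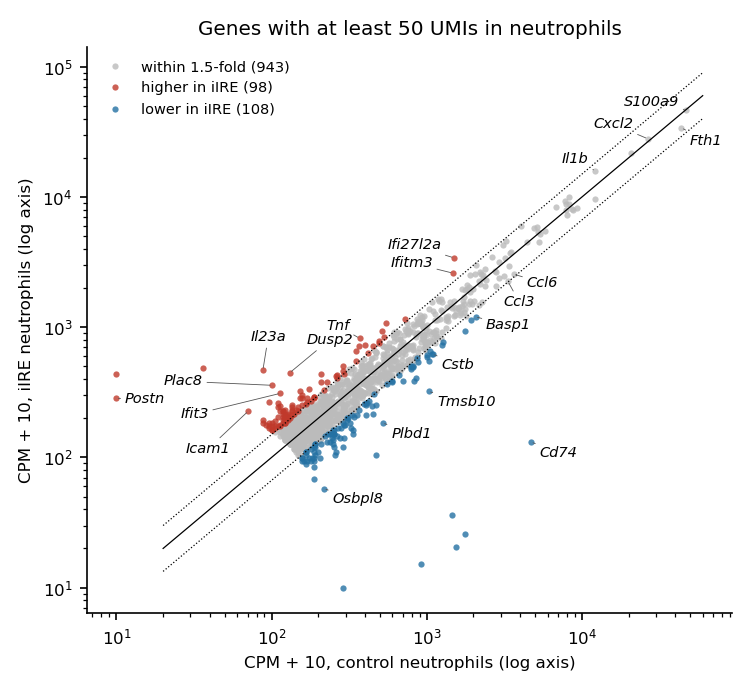
Level of each of 1149 genes with at least 50 UMIs in neutrophils of the control (x axis) and iIRE (y axis) library, in CPM + 10 on log axes, 1 point per gene, with lines at equality and at 1.5-fold. Genes called higher (98) lie above and genes called lower (108) below the dotted lines; Il23a, Dusp2, Tnf, Ifi27l2a and Ifitm3 stand on the upper side, while Cd74 and Postn rest on the 5 members over 4000 UMIs.

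Cytokine genes of the IL-1 and TNF group leaned to the iIRE side. Of 25 genes of this list, 13 had at least 50 UMIs, 3 of them were higher by over 1.5-fold, beside 8.53% of all compared genes, and none was lower. Their median was 0.34, against -0.02 over all genes. The 13 genes include Il1r2, which was also used to choose the cells, at 0.02. Without the 5 cells 4 were higher, none was lower, and the median was 0.30. In the other cells the median of the list was -0.18 in Ly6c2 monocytes, -0.11 in C1q macrophages and 0.00 in tumor cells.

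Tnf, the gene for tumor necrosis factor, had 83 control and 154 iIRE UMIs, or 359 and 812 CPM, with a log2 ratio of 1.15 (0.78 to 1.58) and 1.04 without the 5 cells. It was seen in 31 control and 35 iIRE members, with up to 12 and 18 UMIs in 1 cell, so the number of cells with a UMI was close and the UMIs per such cell were more. Il1a, which codes for the alarmin IL-1α, had 33 and 60 UMIs, 143 and 316 CPM, and a ratio of 1.09 (0.51 to 1.81), the same without the 5 cells. Tnfaip3, the deubiquitinase A20 that restrains NF-κB, had 112 and 146 UMIs, 485 and 770 CPM, and a ratio of 0.66 (0.30 to 1.04). It was seen in 35.4% of control and 53.8% of iIRE members. Over the other settings tried, it came to 0.31 at the weakest, within 1.5-fold, while Tnf and Il1a stayed past the limit. Il1b was found in almost every cell, 95.8% and 95.5%, at 12183 and 15844 CPM, a ratio of 0.38 (0.30 to 0.45) that lay within 1.5-fold. Tumor cells held 30.6 and 36.2 CPM of Il1b. How much free RNA the members held was not tested. Nfkbia, the NF-κB inhibitor IκBα, stood at 4934 and 5800 CPM with a ratio of 0.23, and the antagonist gene Il1rn at 0.09. Osm, an IL-6 family cytokine, lay on the other side, with 404 and 261 UMIs and a ratio of -0.34 (-0.58 to -0.12). Nfkb1 moved from 0.43 with all members to 1.18 without the 5 cells.

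Outside this list, Il23a had the largest ratio of the cytokine genes. It codes for the p19 subunit of IL-23, which sustains IL-17-producing lymphocytes. It had 18 UMIs in 10 control members and 87 UMIs in 29 iIRE members, 77.9 and 459 CPM, and a ratio of 2.41 (1.81 to 3.38), or 2.30 without the 5 cells. C1q macrophages held 7.46 and 8.56 CPM. The phosphatase gene Dusp2, which acts on MAP kinases, had 28 and 83 UMIs, 121 and 438 CPM and a ratio of 1.77 (1.22 to 2.53). Icam1, an adhesion molecule, had 14 and 41 UMIs and a ratio of 1.68 (0.93 to 2.83). The 3 genes kept their call without the 5 cells. The immediate early list as a whole stood near 0, with a median of 0.05, or -0.03 without the 5 cells. Of its 23 compared genes 1 was higher, beside 8.53% of all compared genes, and none was lower, beside 9.4%.

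Interferon-stimulated genes were the list with the most genes on the iIRE side. Of 36 genes, 16 had at least 50 UMIs, 7 were higher by over 1.5-fold, beside 8.53% of all compared genes, none was lower, beside 9.4%, and the median was 0.52, beside -0.02. Without the 5 cells, 7 were higher, 1 was lower, and the median was 0.57. With the rule genes required at 1% of UMIs, 5 were higher, none was lower, and the median fell to 0.18. The same list had a median of -0.03 in Ly6c2 monocytes, 0.15 in C1q macrophages and 0.06 in tumor cells. There 0 of 25, 1 of 35 and 0 of 35 genes were higher, beside 6.13%, 0.515% and 0.0501% of all genes. In turn 3, 1 and 0 were lower, beside 4.57%, 0.494% and 0.025%. In C1q macrophages the 7 genes higher in neutrophils had ratios of 0.60 (Slfn4), 0.58 (Irf7), 0.48 (Gbp2), 0.45 (Ifitm3), 0.32 (Slfn5), -0.07 (Ifit3) and -0.59 (Rsad2). Whether the neutrophils differ from the other cells was not tested.

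The promoters of the higher genes were read from RefSeq (GRCm38.p6) over the 250 bases before the start, on both strands, for GAAA, any 2 bases and GAAA again, the core of the interferon-stimulated response element (ISRE) that IRF factors bind. They occurred before 936 of 27025 genes (3.46%), 42 of 906 matched compared genes (4.64%) and 15 of 31 matched genes of the interferon list (48.4%). Of the 14 matched compared genes of the list, 6 held a match (42.9%), 4 of them among the 7 higher genes. Of 58 matched genes called higher with and without the 5 cells 8.62% held it, and of 35 called lower 5.71%. The 4 higher interferon genes with a match are shown to let the element be seen beside the values. NF-κB sites were searched as GGG, any 2 bases and TTTCC. They lay before 447 of all genes (1.65%) and 27 of 906 matched compared genes (2.98%). Among the same 58 higher and 35 lower genes, 8.62% and 2.86% held them. In the IL-1 and TNF list they lay before 5 of 20 matched genes (25%), among them Tnfaip3 of the 3 higher genes. Capitals mark the matches, on either strand, and a match is a description of these letters only. Each line gives bases 5′ to 3′ on the strand of the gene, namely Ifit3 at chr19:34583353-34583436 on the plus strand, Gbp2 at chr3:142620584-142620633 on the plus strand, Rsad2 at chr12:26456543-26456592 on the minus strand, Slfn5 at chr11:82951927-82951976 on the plus strand, and Tnfaip3 at chr10:19015411-19015442 on the minus strand.
Ifit3: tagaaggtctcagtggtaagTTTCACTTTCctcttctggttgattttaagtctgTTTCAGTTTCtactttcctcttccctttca
Gbp2: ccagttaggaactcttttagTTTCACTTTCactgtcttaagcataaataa
Rsad2: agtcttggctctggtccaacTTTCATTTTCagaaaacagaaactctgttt
Slfn5: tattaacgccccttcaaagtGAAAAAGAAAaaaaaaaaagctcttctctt
Tnfaip3: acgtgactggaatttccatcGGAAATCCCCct

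Ifit3, an antiviral protein whose promoter above held 2 matches, had 24 control and 57 iIRE UMIs, 104 and 301 CPM, and a ratio of 1.45 (0.82 to 2.29). It was seen in 15 and 29 members. Gbp2, a guanylate-binding protein of cell-autonomous defense, had 23 and 44 UMIs and a ratio of 1.14 (0.46 to 2.02). Irf7, a transcription factor that amplifies type I interferon, had 82 and 133 UMIs, 355 and 701 CPM, and a ratio of 0.96 (0.57 to 1.40). Slfn5 had 25 and 41 UMIs and a ratio of 0.94 (0.25 to 1.78). Ifitm3, a membrane protein that blocks virus entry, had 337 and 492 UMIs, 1458 and 2594 CPM, and a ratio of 0.83 (0.63 to 1.04). Over the other settings tried, Ifitm3 came to 0.50 at the weakest, within 1.5-fold. All of these 5 genes kept their call without the 5 cells. Rsad2, at 0.70, and Slfn4, at 0.69, came to 0.57 and 0.56 without them and then lay within 1.5-fold, while the transcription factor gene Irf1, from 0.47 to 0.80, passed it. Over the other settings, Rsad2 came to 0.17 and Slfn4 to 0.42 at the weakest, while Ifit3, Gbp2, Irf7 and Slfn5 stayed past 1.5-fold.

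Not every interferon gene lay on the iIRE side. Isg15, a ubiquitin-like protein with a match in its promoter, had 259 and 238 UMIs and a ratio of 0.16 (-0.10 to 0.42). Ifitm2, which also held a match, lay lower, with 646 and 388 UMIs and a ratio of -0.45 (-0.64 to -0.27). Isg20, an exonuclease, had 61 and 36 UMIs, a ratio of -0.46, and passed the limit at -0.59 without the 5 cells. Outside the list, Ifi27l2a, an interferon-inducible gene, had 343 and 645 UMIs, 1484 and 3401 CPM, and a ratio of 1.19 (1.00 to 1.39). This gene was also higher in C1q macrophages, at 0.81, and in tumor cells, at 0.60. Ly6e had 124 and 204 UMIs and a ratio of 0.99 (0.67 to 1.34), and 0.66 in the macrophages. Over the other settings tried, Ly6e came to 0.57 in members at the weakest, within 1.5-fold. The receptor gene Ifnar2, through which cells sense type I interferon, was lower, with 66 and 32 UMIs and a ratio of -0.73 (-1.42 to -0.13).

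The median of the hypoxia and glycolysis genes lay on the control side, while few of them passed the limit. Of 29 genes, 22 had at least 50 UMIs, none was higher by over 1.5-fold and 3 were lower, near the 9.4% of all compared genes. The median was -0.31, beside -0.02 over all genes. Without the 5 cells none was higher, 4 were lower and the median was -0.29. With the rule genes required at 0.25% of UMIs, which admitted 163 control and 148 iIRE cells, 1 was lower and the median was -0.09. The medians in Ly6c2 monocytes, C1q macrophages and tumor cells were -0.20, -0.15 and -0.07. The 3 lower genes were Hk2, the first kinase of glycolysis, with 56 and 29 UMIs and a ratio of -0.63 (-1.36 to 0.01), Pfkp, a phosphofructokinase, with 55 and 27 UMIs and -0.70 (-1.46 to -0.05), and Egln3, a prolyl hydroxylase induced by low oxygen, with 104 and 56 UMIs and -0.59 (-1.10 to -0.13). Pfkp came to -0.56 without the 5 cells and then lay within 1.5-fold. Over the other settings tried, Hk2 came to -0.25 and Egln3 to -0.31 at the weakest, within 1.5-fold. Ldha, lactate dehydrogenase, had 503 and 277 UMIs, 2177 and 1461 CPM, and a ratio of -0.57 (-0.79 to -0.36). Ero1l, an oxidase of protein folding that low oxygen induces, had 176 and 97 UMIs and the same ratio of -0.57 (-0.95 to -0.21). Both passed the 1.5-fold limit without the 5 cells, at -0.60 and -0.67. At the weakest of the other settings they came to -0.19 and -0.40. The lipid droplet gene Hilpda stood at 1883 and 1587 CPM, a ratio of -0.24, and the pyruvate kinase gene Pkm at 0.10.

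Chemokine genes held 37673 control and 37584 iIRE CPM together. No gene of the list passed 1.5-fold with all members in, beside 8.53% higher and 9.4% lower of all compared genes. Of 14 genes, 5 had at least 50 UMIs, with a median of -0.37, which turned to 0.33 with the rule genes at 0.25% of UMIs and to 0.12 with a minimum of 500 UMIs. Cxcl2, a ligand of CXCR2, stood at 26477 and 28040 CPM, a ratio of 0.08 that turned to -0.05 without the 5 cells, and its relative Cxcl3 at 2064 and 2974 CPM, a ratio of 0.52 (0.35 to 0.71). The CC chemokines lay on the control side. Ccl3 had 767 and 426 UMIs, 3319 and 2246 CPM, and a ratio of -0.56 (-0.74 to -0.39). Ccl6 had 841 and 482 UMIs, 3640 and 2541 CPM, and a ratio of -0.52 (-0.68 to -0.35), and it was seen in 81.2% of control and 50.8% of iIRE members. Without the 5 cells both passed the limit, at -0.72 and -0.62. Ccl4 had 447 and 284 UMIs and a ratio of -0.37, which turned to 0.05 with a minimum of 500 UMIs. In C1q macrophages Ccl3, Ccl4 and Ccl6 had ratios of 0.21, 0.31 and 0.04, and in Ly6c2 monocytes -0.17, -0.41 and -0.78. Cxcl10, an interferon-induced chemokine, had 1 control and 15 iIRE UMIs and was too low to be compared.

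Of 19 genes for chemokine and chemoattractant receptors and adhesion, 14 had at least 50 UMIs, 2 were higher, near the 8.53% of all compared genes, and none was lower. The median was 0.34, or 0.24 without the 5 cells, beside -0.02 and 0.02 over all genes. Csf3r, one of these 14 genes, was also used to choose the cells and had a ratio of 0.31. Icam1, described above, was one of the higher genes. Ccrl2, an atypical receptor that binds chemerin, stood at 3090 and 4255 CPM and the complement receptor gene C5ar1 at 900 and 1239 CPM, both with a ratio of 0.46. Cxcr2 stood at 537 and 696 CPM with a ratio of 0.37 (0.01 to 0.74), and Cxcr4, which holds neutrophils in the marrow, at 260 and 264 CPM. Neither lay beyond 1.5-fold.

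Among effector genes, Mmp9, a gelatinase of tertiary granules, had 102 and 135 UMIs and a ratio of 0.68 (0.31 to 1.07), and came to 0.57, within 1.5-fold, without the 5 cells. Lyz2, the lysozyme gene, had 117 and 177 UMIs and a ratio of 0.87 (0.54 to 1.23), or 0.79. Over the other settings tried, Lyz2 came to 0.54 at the weakest, within 1.5-fold. This gene is far more abundant in C1q macrophages, at 10912 and 9905 CPM, and up to 37 of the UMIs came from 1 iIRE cell. None of the 6 compared NADPH oxidase genes passed 1.5-fold, beside 8.53% higher and 9.4% lower of all compared genes. Ncf1 stood at 515 and 707 CPM with a ratio of 0.45. Pirb, an inhibitory receptor for MHC class I, had 24 and 45 UMIs and a ratio of 1.12 (0.45 to 1.97). Cd274, which codes for the checkpoint ligand PD-L1, stood at 489 and 422 CPM, a ratio of -0.21 (-0.65 to 0.21).

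Single lower genes came from several lists. Of the pattern and Fc receptor list, 1 of 17 compared genes was higher and 2 were lower, with a median of 0.13. Of the colony-stimulating factor list none of 13 was higher and 2 were lower, with a median of -0.07. Those 13 include Csf3r, a gene of the rule, at 0.31. Over all compared genes, 8.53% were higher and 9.4% lower. Fcgr3, a low-affinity IgG receptor, had 291 and 145 UMIs, 1259 and 765 CPM, and a ratio of -0.71 (-1.02 to -0.43). Csf2rb, the shared β chain for GM-CSF and IL-3, had 91 and 48 UMIs and a ratio of -0.62 (-1.17 to -0.12). Nfil3, a basic leucine zipper factor, had 136 and 70 UMIs and -0.66 (-1.11 to -0.25). Cstb, an inhibitor of cathepsins in the cytosol, had 251 and 116 UMIs, 1086 and 612 CPM, and -0.82 (-1.16 to -0.51), and Basp1, a membrane protein, 474 and 226 UMIs and -0.78 (-1.02 to -0.55). The largest negative ratio among these genes was that of Osbpl8, a lipid transfer protein, with 48 and 9 UMIs and -1.92 (-3.34 to -1.09). Plbd1, a phospholipase-like protein, had 118 and 33 UMIs and -1.50 (-2.16 to -0.99), Chst11, a sulfotransferase, 64 and 21 UMIs and -1.25 (-2.11 to -0.59), and Gla, a lysosomal galactosidase, 75 and 27 UMIs and -1.13 (-1.88 to -0.54). All 9 kept their call without the 5 cells. Over the other settings tried, Csf2rb came to -0.11, Basp1 to -0.38, Cstb to -0.41, Chst11 to -0.44 and Nfil3 to -0.49 at the weakest, within 1.5-fold. Osbpl8, Plbd1, Gla and Fcgr3 stayed past it. The ferritin heavy chain gene Fth1 was seen in every member, at 43793 and 33909 CPM, a ratio of -0.37 (-0.41 to -0.32).

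Some markers of other cells also differed in members between the libraries, and the source of these transcripts was not tested. The 13 acinar genes, which code for digestive enzymes of the normal pancreas, summed to 49 control and 163 iIRE UMIs, or 212 and 859 CPM, in members, and 20.8% and 48.5% of members held an acinar UMI. They summed to 48.6 and 197 CPM in Ly6c2 monocytes, where no acinar gene reached 50 UMIs. The sums were 154 and 245 CPM in C1q macrophages and 248 and 199 CPM in tumor cells. Ctrb1, the only acinar gene compared singly in members, had 20 and 49 UMIs and a ratio of 1.47 (0.80 to 2.41). The 12 macrophage markers summed to 268 and 248 CPM in members and 18793 and 18024 CPM in the macrophages, and 3 of the 12 had no UMI in members. The monocyte list summed to 428 and 517 CPM, or 261 and 499 CPM without the 5 cells. Its only gene with at least 50 UMIs, Plac8, had 21 and 66 UMIs and a ratio of 1.83 (1.21 to 2.72), and it stood at 2361 and 2740 CPM in Ly6c2 monocytes and had a ratio of 1.15 in C1q macrophages. The tumor epithelial list summed to 51.9 and 89.6 CPM, and the fibroblast list to 281 and 255 CPM without the 5 cells. The part of these cells in the ratios above was not tested.

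Clustering of all members together gave 4 groups, which are described by the genes that set them apart and hence without a test. Cluster 0, with 112 cells, held all 5 members over 4000 UMIs, and was led by Dusp2, Il23a, Tnf and ribosomal protein genes, which made up 7.32% of its UMIs. Cluster 1, with 68 cells, was led by Ero1l, Hmox1, Ccl3, Higd1a, Hilpda and Hk2, and 5 of its 30 leading genes were on the list of the tumor-adapted neutrophil state. Cluster 2, with 51 cells, was led by Retnlg, Gbp2, Isg15, Ifit3, Ly6g and Lcn2, with 4 blood-like and 8 interferon genes among the leading ones, and the rule genes held 13.5% of its UMIs. Cluster 3, with 45 cells, was led by 1600010M07Rik, Sertad1 and Usp38 and fitted no list. Cluster 1 devoted 3.28% of its UMIs to hypoxia and glycolysis genes, against 0.874% to 1.42% in the other clusters, and cluster 2 devoted 2.86% to interferon-stimulated genes, against 0.833% to 1.29%.

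**Figure D4:**
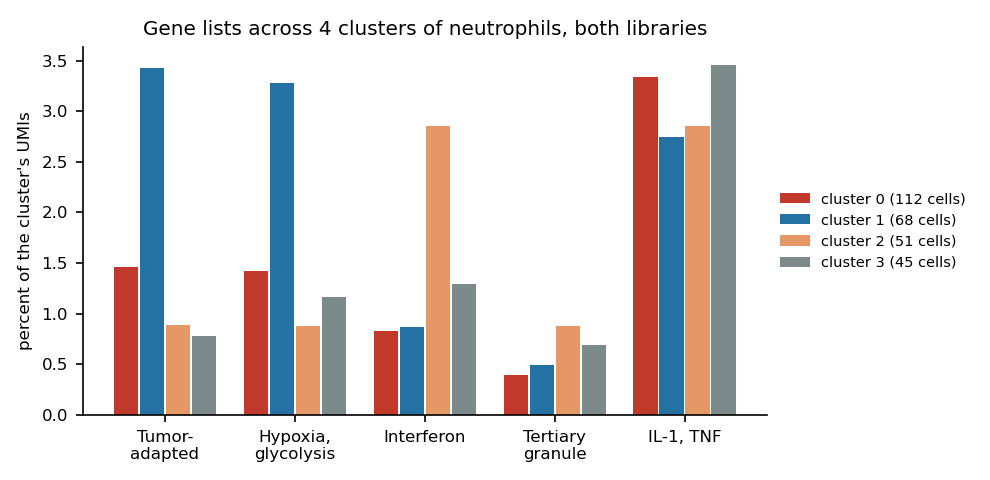
Percent of UMIs from 5 gene lists in the 4 clusters of all 276 members, both libraries pooled, 1 bar per cluster and no error bar, on an axis from 0. The tumor-adapted and hypoxia lists stand highest in cluster 1 (3.42% and 3.28%), the interferon list in cluster 2 (2.86%), and the IL-1 and TNF list lies between 2.74% and 3.46% in all clusters. The IL-1 and TNF list includes Il1r2, a gene of the rule.

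The control library gave 46, 48, 23 and 27 cells to clusters 0 to 3 and the iIRE library 66, 20, 28 and 18. These numbers are not read as a difference in state, since genes that differ between the libraries helped to draw the clusters. Of the 87 Il23a UMIs in iIRE members, 82 lay in cluster 0, against 7 of 18 in the control. For Tnf, 144 of 154 iIRE UMIs lay in cluster 0, against 39 of 83 in the control, where another 40 lay in cluster 1. Ldha had 317 control and 140 iIRE UMIs in cluster 1, and its ratio among the cells of that cluster was 0.04 (-0.26 to 0.33), against -0.57 over all members. In clusters 0, 2 and 3 its ratio was -0.37, -0.57 and -0.45, each with an interval that reached past 0. Ccl3 had a ratio of -0.81 in cluster 1, with 605 and 148 UMIs, and of 0.81 in cluster 0, with 134 and 245 UMIs. Its ratio was 2.81 in cluster 2, with 3 and 30 UMIs, and -2.23 in cluster 3, with 25 and 3. Ifi27l2a had ratios of 0.26 (-0.20 to 0.72), 1.81, 1.18 and 0.54 in clusters 0 to 3, against 1.19 over all members. Cluster 0 held all 5 members over 4000 UMIs, and the ratios within clusters were not repeated without them. The 4 control cells among them held 31609 UMIs, so the ratios in cluster 0 rest partly on these cells.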

How the data were processed

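Cells of 1 control and 1 iIRE tumor library, made with the 10x Genomics 5′ v2 kit, were counted by the authors with Cell Ranger, which aligns with STAR, against mm10. The version is 7.0.1 in the file header and another in the study's methods. The deposited values are raw UMI counts for 32285 genes and 37971 barcodes, and the study's own cell and doublet filters had not been applied to them. Libraries were told apart by barcode ending. Of listed symbols, Clec7a, Mx1 and Mx2 were not analysed here, and Ero1a was read as Ero1l. Members and lists were chosen with earlier results of these data known.

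From the counts, UMIs were summed over members, scaled to CPM, and compared as log2 ratios with 10 CPM added, over genes with at least 50 UMIs and a 1.5-fold limit. Intervals were exact conditional binomial intervals (SciPy 1.17.1). Comparison cells were C1q macrophages (C1q genes at least 0.5% and 5 UMIs), Ly6c2 monocytes (at least 2 Ly6c2 and 2 Lyz2 UMIs) and tumor cells (at least 10 UMIs of Krt8, Krt18 and Cdkn2a, no Ptprc). Members were clustered with scanpy 1.11.5 and leidenalg 0.10.2 (Leiden resolution 0.6) on 1000 variable genes. Genes named were those of the rule, the highest and the called genes of each list, the 15 largest ratios in each direction, and the leading genes of the clusters. A few of these genes are not reported here. Doublets were kept. Alternatives changed the rule, filters, doublet removal by Scrublet, scaling, added CPM, limits and clustering, and leaving out the 5 members over 4000 UMIs and the minimum of 500 UMIs were added after seeing the data. The scripts were checked on simulated counts (Python 3.11.15, numpy 2.4.6, pandas 2.3.3, matplotlib 3.10.9).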

Additional observations from a re-analysis of the deposited data

Results flagged for a closer look

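Among the named genes, those past 1.5-fold in neutrophils, with and without the 5 members over 4000 UMIs, were looked up in the other cell classes. In 4 cases the ratio there was past 1.5-fold in the opposite direction, with an interval clear of 0. By the 1.5-fold limit alone, 6.13% of all compared genes were higher and 4.57% lower in Ly6c2 monocytes. In C1q macrophages these shares were 0.515% and 0.494%. Whether the 4 cases exceed such shares was not tested. Il1a, higher in neutrophils at 1.09, had a log2 ratio of -0.77 (-0.93 to -0.69) in C1q macrophages, with 1692 control and 802 iIRE UMIs. In Ly6c2 monocytes Il1a had a ratio of -0.80 (-1.71 to -0.09), with 29 and 27 UMIs. Osbpl8, lower in neutrophils at -1.92, had a ratio of 1.18 (0.58 to 2.04) in Ly6c2 monocytes, with 21 and 88 UMIs. Rgcc, a regulator of the cell cycle, was lower in neutrophils at -0.89, with 106 and 46 UMIs, and stood at 1.07 (0.50 to 1.82) in Ly6c2 monocytes, with 26 and 99 UMIs. With 1 library per group, the difference between the cell classes was not tested.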

How the results depend on the processing

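No paired analysis was possible because each group had 1 library, and for the same reason no replicate could be left out. The share of neutrophils moved by less than its counting interval under all alternatives. The counts of higher and lower genes, 98 and 108, followed the limits: 375 and 317 with at least 20 UMIs, 14 and 30 with at least 200 UMIs, 309 and 333 at 1.2-fold, and 18 and 23 at 2-fold. The other alternatives kept both counts within 1.5 times, but not always the same genes. Of the 98 higher and 108 lower genes, 63 and 35 were called again with the rule genes at 0.25% of UMIs. With the rule genes at 1%, 70 and 50 were called again, and with equal weight per cell 76 and 67. Of 120 values of 10 list medians under 12 settings, 116 moved by less than 0.2 on the log2 scale, 2 moved by more, and 2, both of the chemokine list, reversed: 0.33 with the rule genes at 0.25% of UMIs and 0.12 with a minimum of 500 UMIs. Of 788 values of 66 genes, 721 stayed within the counting interval of the first value and 64 left it. The other 3 changed sign from a value past 1.5-fold, namely Cd74, at 0.26 without the 5 members over 4000 UMIs, and Cst3, at 0.53 without them and 0.21 with equal weight per cell. Values within 1.5-fold that changed sign, such as those of Ccl4, Cxcl2, Tmsb4x and Mt1, count among the first or second. The clusters depended on the settings. Cluster 0, 40.6% of members, held 19.9% at Leiden resolution 1.0, 57.2% at 0.4, 48.9% when rule, mitochondrial and ribosomal protein genes were left out, and 54.2% without the 5 members. Cluster 1, 24.6%, held 18.1% at resolution 1.0 and 31.2% without those genes. Cluster 2, 18.5%, held 13.3% without the 5 members. Cluster 3, 16.3%, merged into a group of 57.2% at resolution 0.4, of 48.9% without those genes and of 54.2% without the 5 members. The causes were not tested. The depth of about 1300 UMIs a cell limits what can be seen of low genes such as Ly6g and Cxcl10.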

Other observations

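Several genes outside the rule had far higher levels in neutrophils than in the compared cells. Acod1, the enzyme that makes itaconate, stood at 3475 control and 3786 iIRE CPM in members, against 24.8 and 24.6 CPM in C1q macrophages and 48.6 and 18.7 CPM in Ly6c2 monocytes. Hcar2, a receptor for hydroxybutyrate and niacin, stood at 3363 and 2932 CPM, against 33.1 and 26.6 CPM in the macrophages. Stfa2l1, a cysteine protease inhibitor of the stefin family, had 46 and 81 UMIs in members, a ratio of 1.06 (0.56 to 1.66), and no UMI in the macrophages or monocytes.

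The prostaglandin synthase gene Ptgs2 stood at 1220 and 1629 CPM, a ratio of 0.41 (0.18 to 0.65). The RNA-binding protein gene Zfp36, which shortens the life of cytokine transcripts, stood at 4051 and 6006 CPM, a ratio of 0.57 (0.44 to 0.69). The receptor gene Lilr4b stood at 1792 and 1202 CPM, a ratio of -0.57 (-0.82 to -0.34), which came to -0.65 without the 5 members over 4000 UMIs. The lysophospholipid acyltransferase gene Lpcat2 had 23 and 48 UMIs and a ratio of 1.26 (0.60 to 2.13).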
